A study of Mus musculus with 33 samples.

Results

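The neutrophil primary granule genes Elane, Mpo, Prtn3, Ctsg and Ms4a3 were followed through 33 RNA sequencing libraries of mouse bone marrow. They are 5 of the 38899 genes listed in all 4 deposited tables of FPKM, that is, fragment counts scaled by transcript length and library size. They were chosen by name, as progenitor-stage neutrophil genes that had been seen to be lower after irradiation and higher after blood cell ablation in these same libraries. Those contrasts are therefore given below as values, with no test, and tests are kept for comparisons among the other groups. The bone EC libraries are the control of one of those contrasts, so they too are set beside the marrow fractions with no test.

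The groups held 3 libraries each, from C57BL/6 mice of 8 to 12 weeks. Irradiated bone EC and bone EC were endothelial cells (EC) of Cdh5-mTnG mice, which report the endothelial gene Cdh5, with 9 Gy of irradiation and with no treatment. By their labels Vav1 DTX EC and Vav1 control EC both carried Vav1-Cre R26-DTR Cdh5-mTnG, in which a Cre active in blood cells turns on the diphtheria toxin receptor. The labels also give diphtheria toxin for both. Only the titles (ctrl and DTX) and the sample descriptions (Vav1-Cont and Vav1-Cre) set them apart. Unlike the labelled genotype, the descriptions name Cre for Vav1 DTX EC only, so whether the controls carried it is uncertain. Apln+ EC came from tamoxifen-treated Apln-CreERT2 R26-mTmG mice and diaphysis EC from the femur of untreated Cdh5-mTnG mice. The 9Gy1D EC libraries came from Cdh5-mTnG mice after 9 Gy, and Esm1+ EC from tamoxifen-treated Esm1-CreER R26-mTmG mice. LSK, Lin- and BMC, in standard use the Lin- Sca1+ cKit+ fraction that holds the blood stem cells, lineage-negative cells and total bone marrow cells, came from untreated wild-type mice. The time after irradiation is not given in the sources used here, nor is it said whether replicates were separate animals, so p-values measure the spread between these libraries.

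Neutrophils load their granules in the order in which they are made. The primary, or azurophil, granules are filled at the promyelocyte stage with the serine proteases neutrophil elastase, proteinase 3 and cathepsin G and with myeloperoxidase, and transcription of these genes is shut off before the secondary and tertiary granule genes and the genes of mature cells come on. The 5 genes therefore mark an early stage of granulocyte production more than the circulating cell. Elane encodes neutrophil elastase, Prtn3 proteinase 3, Ctsg cathepsin G and Mpo the peroxidase that makes hypochlorous acid. Ms4a3 encodes a membrane protein of the tetraspan MS4A family rather than a granule enzyme, and in mice it marks granulocyte-monocyte progenitors.

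Whole reads recovered from the steps of the FPKM came to 1.55 to 12.29 M per library, lowest in LSK. The endothelial markers Cdh5, Pecam1 and Kdr were higher in each of the 24 endothelial libraries than in any of the 9 others (Cdh5 14.1 to 200.3 against 0.0906 to 10.7 FPKM), and the stem cell gene Hlf averaged 30.8 FPKM in LSK, 1.94 in Lin- and 0.81 in BMC. The endothelial libraries also held blood cell transcripts throughout: 16 late granule and mature neutrophil genes made up 10.8% of all FPKM in bone EC and 16.3% in BMC. Some libraries stood apart from their group. Lin- replicate 3 had 12.5% of its FPKM in erythroid genes, against 0.295% and 0.304% in replicates 1 and 2. Apln+ replicate 1 had 0.196% in 12 pan-endothelial genes, against 1.02% and 1.08% in the other two, Vav1 DTX replicate 2 had 0.627%, against 0.333% and 0.278%, and 9Gy1D replicate 1 had 0.899%, against 1.4% and 1.26%. Esm1+ replicates 1 and 2 were closer to each other than any other pair (chi-square per gene 1.39, other pairs 3.13 to 181.9) but differed by more than sampling noise, and were kept as separate samples.

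In the mm10 (GRCm38) genome, Prtn3 (chr10:79874476-79883174) and Elane (chr10:79886247-79888215) are neighbours on the plus strand, 3072 bases apart. Mpo lies at chr11:87793581-87804413 on the plus strand, Ctsg at chr14:56099881-56102574 and Ms4a3 at chr19:11629496-11640851 on the minus strand. All 5 are protein-coding genes in GENCODE vM21. An antisense gene, Gm11505, lies within Mpo, and Plppr3 on the other strand overlaps one end of Prtn3. Whether counting used strand is not given in the sources used here, so reads of those stretches cannot be assigned with certainty.

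The 250 bases before each transcription start are shown because the genes moved together across the libraries. They are RefSeq sequences on GRCm38.p6, read 5′ to 3′ on the strand of the gene: Prtn3 at chr10:79879417-79879666 (plus), Elane at chr10:79886062-79886311 (plus), Mpo at chr11:87793534-87793783 (plus), Ctsg at chr14:56102575-56102824 (minus) and Ms4a3 at chr19:11640852-11641101 (minus). For Prtn3, Elane and Mpo the RefSeq start lies downstream of the first base of the GENCODE gene. Capitals mark the motif AGGAAGT of the ETS family, of the type bound by PU.1, and the motif AACGG bound by MYB, and Ms4a3, which holds neither, is given beside the rest.
Prtn3: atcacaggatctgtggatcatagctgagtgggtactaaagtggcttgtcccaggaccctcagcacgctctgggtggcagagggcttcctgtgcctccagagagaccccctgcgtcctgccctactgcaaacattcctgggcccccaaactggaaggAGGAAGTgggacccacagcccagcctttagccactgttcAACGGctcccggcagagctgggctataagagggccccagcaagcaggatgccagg
Elane: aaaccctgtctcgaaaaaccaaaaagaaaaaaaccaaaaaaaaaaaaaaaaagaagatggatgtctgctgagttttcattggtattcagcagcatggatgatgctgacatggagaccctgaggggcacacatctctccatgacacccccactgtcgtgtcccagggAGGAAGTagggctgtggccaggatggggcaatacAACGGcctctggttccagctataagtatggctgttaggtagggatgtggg
Mpo: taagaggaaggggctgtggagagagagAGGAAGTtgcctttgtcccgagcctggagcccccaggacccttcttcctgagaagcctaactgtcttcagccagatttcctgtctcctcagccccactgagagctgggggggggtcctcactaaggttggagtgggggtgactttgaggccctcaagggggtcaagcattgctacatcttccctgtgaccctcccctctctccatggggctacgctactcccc
Ctsg: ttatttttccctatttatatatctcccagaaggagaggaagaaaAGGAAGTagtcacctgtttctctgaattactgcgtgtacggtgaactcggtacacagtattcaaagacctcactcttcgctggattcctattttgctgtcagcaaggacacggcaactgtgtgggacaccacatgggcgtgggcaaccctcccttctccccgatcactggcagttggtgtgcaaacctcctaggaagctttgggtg
Ms4a3: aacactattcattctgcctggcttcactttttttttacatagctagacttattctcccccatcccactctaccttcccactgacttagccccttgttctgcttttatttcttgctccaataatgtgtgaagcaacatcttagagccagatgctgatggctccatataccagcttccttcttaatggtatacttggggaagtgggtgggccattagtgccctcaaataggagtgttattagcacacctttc

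The ETS motif stood 94 bases before the start of Prtn3 and 84 before that of Elane, followed by the MYB motif at 55 and 50 bases and TATAA at 32 and 31 bases, so the 2 neighbouring genes held the same 3 motifs in the same order at similar distances. Mpo and Ctsg held the ETS motif farther upstream, 223 and 206 bases before the start. In 300-base windows (250 before to 50 after the start, both strands searched), AGGAAGT was found in 4 of the 5 genes and in 9.35% of 32851 RefSeq promoters, AACGG in 2 of the 5 and in 17.4%, and TATAA in 3 of the 5 and in 24.9%. The C/EBP motif TTGCNNAA was found only in Ms4a3 among the 5 (10.8% of promoters), 42 bases after the start, and the RUNX motif TGTGGT only in Ctsg (16.8%). None of the motif letters overlap one another in these windows. The letters were picked after the sequences had been seen, and a match is a description of the sequence and not a binding site.

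Across the 11 groups Vav1 DTX EC had the highest mean of each of the 5 genes and irradiated bone EC the lowest. Tables were normalized separately, so levels from different tables are set side by side without a test. Elane averaged 2163 ± 801 FPKM in Vav1 DTX EC (SD, n = 3 here and below), then 1303 ± 343 in Esm1+ EC, 1220 ± 48.3 in Vav1 control EC, 800.2 ± 175 in diaphysis EC, 648 ± 361 in Apln+ EC, 417 ± 62.4 in bone EC, 397 ± 56.2 in BMC, 238 ± 261 in 9Gy1D EC, 9.31 ± 7.65 in Lin-, 7.88 ± 1.64 in LSK and 2.63 ± 1.56 in irradiated bone EC. In that order the ranges of neighbouring groups overlapped, except between Vav1 control and diaphysis EC, 9Gy1D EC and Lin-, and LSK and irradiated bone EC. For Prtn3, Ctsg and Ms4a3 the range of Vav1 DTX EC lay clear of the second group, Vav1 control EC, while for Mpo it overlapped the second, Esm1+ EC. Irradiated bone EC lay clear of the group above it for each gene except Ms4a3, whose range overlapped that of LSK.

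**Figure D1:**
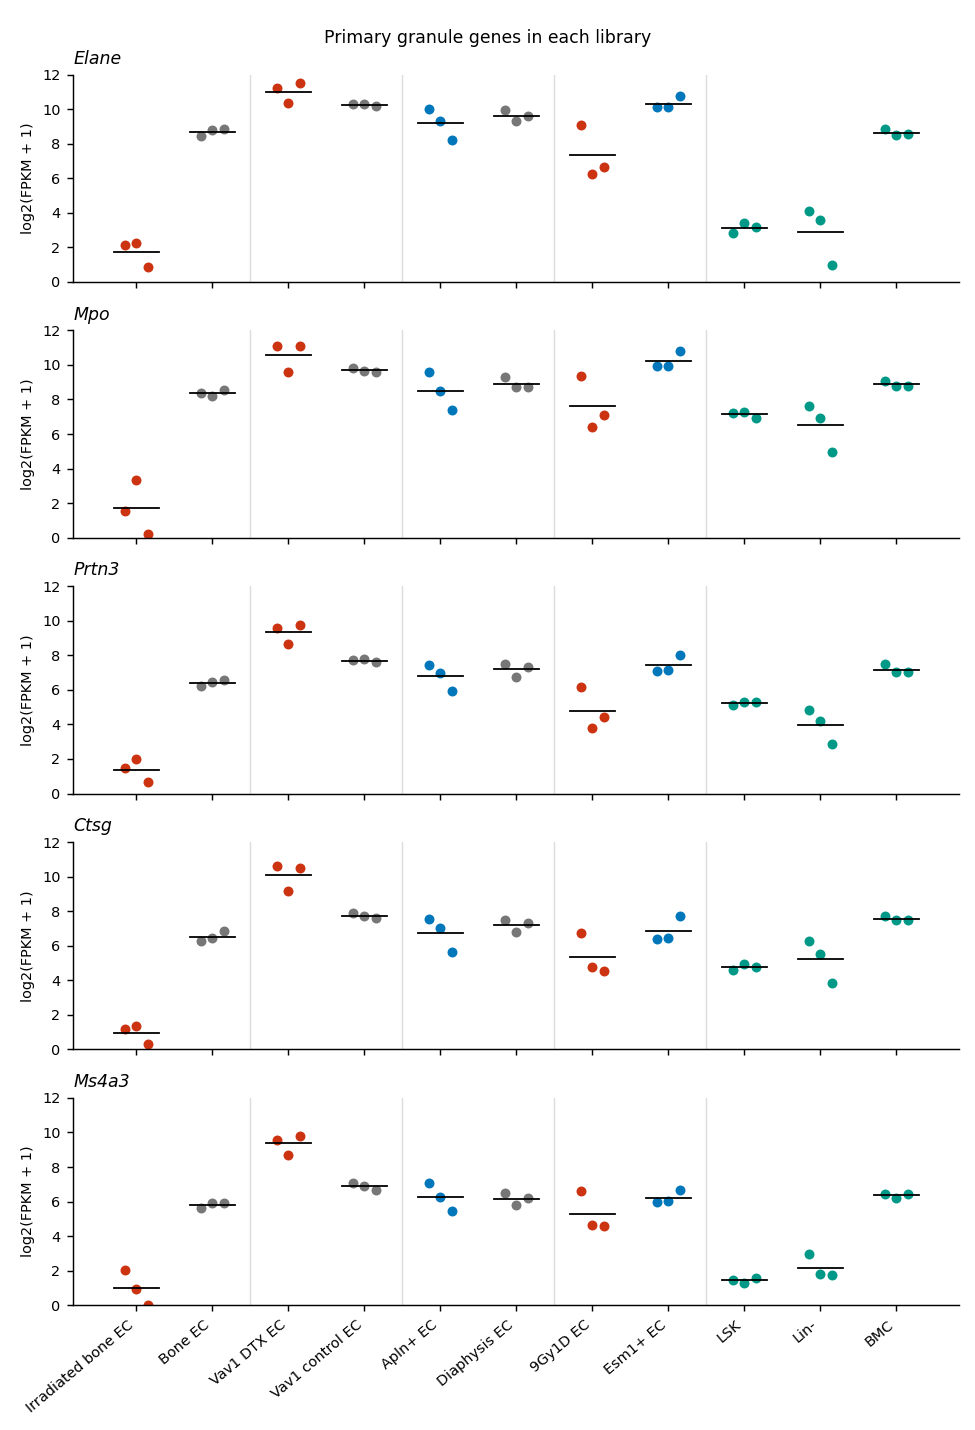
Level of each primary granule gene in each of the 33 libraries (points, log2(FPKM + 1)), 11 groups of 3 on the x axis, with the group mean as a black line; grey lines separate the pairs compared, each with its comparison group on the right. Irradiated bone EC lies lowest for all 5 genes and Vav1 DTX EC highest, and in LSK and Lin- Elane and Ms4a3 lie far below Mpo.

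Irradiated bone EC held almost no primary granule transcripts. The genes summed to 11.3, 18.5 and 1.86 FPKM in irradiated bone EC, against 880.1, 968.0 and 1105 FPKM in bone EC. All 5 had groups that did not overlap, a state that 24.6% of 13044 genes shared in the same direction, and since this contrast chose the genes nothing is read from that count. In bulk samples fewer cells of a type and less RNA per cell cannot be told apart.

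The 3 proteases were down to a handful of reads. Elane had 3.34, 3.71 and 0.846 FPKM (12, 11 and 3 reads) in irradiated bone EC, against 345.9, 440.3 and 463.7 FPKM in bone EC, a mean 158-fold lower and a log2(FPKM + 1) difference of -6.95. Prtn3 had 1.78, 3.05 and 0.599 FPKM in irradiated bone EC, against 74, 87.4 and 94 FPKM in bone EC, a difference of -5.03. Ctsg had 1.28, 1.55 and 0.259 FPKM in irradiated bone EC, against 76.9, 85.8 and 114.4 FPKM in bone EC, a difference of -5.57. At 5, 5 and 1 reads of Ctsg, the 95% exact Poisson interval of the last library ran from 0.00656 to 1.44 FPKM, which covers counting error only. Replicate 3 was the lowest irradiated library for each of the 5 genes.

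Mpo spread over 61.0-fold within the irradiated group, with 1.87, 9.25 and 0.152 FPKM (25, 102 and 2 reads) in irradiated bone EC, against 335.2, 294 and 373.6 FPKM in bone EC, a difference of -6.69. The membrane protein gene Ms4a3 had 3.04, 0.92 and 0 FPKM in irradiated bone EC, against 48.1, 60.4 and 59.4 FPKM in bone EC, a difference of -4.84, and the exact Poisson interval of its 0 reads in replicate 3 reached 3.69 reads. Irradiated bone EC replicate 1, which had the most Ms4a3, also had the most late granule transcripts (1.17% of FPKM, against 0.351% and 0.297% in replicates 2 and 3), while Mpo was highest in replicate 2. Most blood cell markers fell with these values, though not in every list. Of the late granule and mature neutrophil list 16 of 16 genes fell after irradiation, and so did 8 of 8 pan-leukocyte, 10 of 10 each of the erythroid and B lymphoid genes and 16 of 16 genes of the cell cycle, where 19.4% of all genes tested fell. Of 12 monocyte and macrophage genes 8 fell and 1 rose, and of 10 myeloid progenitor surface genes 8 fell and 1 rose. Among 9 tested eosinophil, basophil and mast cell genes 8 fell and 1 rose. Of 7 tested stem and progenitor genes 1 fell and 3 rose. Of 12 pan-endothelial genes 11 rose, where 22.5% of all genes rose. The part of this shift in cell content in the values of the 5 genes was not tested.

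Vav1 DTX EC had more primary granule transcript than its control in each library: the genes summed to 7568, 3458 and 8195 FPKM in Vav1 DTX EC, against 2750, 2576 and 2428 FPKM in Vav1 control EC. The groups did not overlap for 4 of the 5 genes, with Mpo as the exception, where 22.7% of 11664 genes lay apart in this direction. These 4 also lay apart after irradiation, as 2.9% of 11207 genes tested in both contrasts did. Both contrasts chose the genes, so the counts are a description.

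The increase was unequal among the genes. Ms4a3 had 762.9, 419.6 and 891.6 FPKM in Vav1 DTX EC, against 133.3, 120.7 and 100.2 FPKM in Vav1 control EC, a mean 5.85-fold higher (log2 difference 2.48). Ctsg had 1550, 578.0 and 1434 FPKM in Vav1 DTX EC, against 232.4, 207.7 and 193.1 FPKM in Vav1 control EC, 5.63-fold higher (2.36). Prtn3 had 770, 400.9 and 861.1 FPKM in Vav1 DTX EC, against 209, 216.3 and 192.2 FPKM in Vav1 control EC, 3.29-fold higher (1.64). For the genes with the most transcript the difference was smaller. Mpo had 2144, 771.4 and 2147 FPKM in Vav1 DTX EC, against 922, 789.6 and 778.4 FPKM in Vav1 control EC, 2.03-fold higher (0.88), with replicate 2 below all controls. Elane had 2340, 1288 and 2861 FPKM in Vav1 DTX EC, against 1253, 1241 and 1164 FPKM in Vav1 control EC, 1.77-fold higher (0.75).

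Replicate 2 was the lowest Vav1 DTX library for all 5 genes. It also had the least late granule transcript (7.88% of FPKM, against 15.6% and 17.6%) and the most pan-endothelial transcript. Without it the log2 differences were larger, 1.09 for Elane, 1.37 for Mpo and 2.8 for Ms4a3. Markers of other blood lineages were lower. In Vav1 DTX EC 10 of 10 erythroid, 9 of 9 tested B lymphoid and 10 of 12 monocyte and macrophage genes fell, where 15% of all genes tested fell, and of the 16 late granule and mature neutrophil genes 5 fell and 1 rose, where 11.3% of all genes rose. In limma 0 of 12 pan-endothelial genes passed there (2 higher at an unadjusted p below 0.05), and 0 of 16 cell cycle genes (1 lower). The part of these shifts in the values of the 5 genes was not tested.

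In the marrow fractions the 5 genes were tested, since the choice of genes did not use them. Compared with whole marrow, LSK had lower levels of all 5 (5 of 5 called at an adjusted p below 0.05, where 33.8% of 14035 genes were called lower), but by very different amounts. Elane had 6.17, 9.43 and 8.06 FPKM in LSK, against 461.9, 360.0 and 369.7 FPKM in BMC, a mean 50.4-fold lower (log2 difference -5.49 ± 0.16 SE, limma adjusted p = 2.8e-07). Ms4a3 had 1.73, 1.43 and 2.04 FPKM in LSK, resting on 4, 4 and 5 reads, against 84.9, 72.1 and 87.2 FPKM in BMC, 47.1-fold lower (-4.92 ± 0.13, adjusted p = 1.5e-07). Both genes were thus near the bottom of the range in the stem cell fraction.

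Ctsg, Prtn3 and Mpo kept more of their level in LSK. Ctsg had 23.5, 29.9 and 25.9 FPKM in LSK, against 209, 176.1 and 179.5 FPKM in BMC, 7.11-fold lower (-2.79 ± 0.12, adjusted p = 1.3e-06). Prtn3 had 33.3, 38.4 and 38.3 FPKM in LSK, against 178.1, 128.8 and 129.8 FPKM in BMC, 3.97-fold lower (-1.95 ± 0.14, adjusted p = 1.6e-05). Mpo had 146, 156.2 and 119.8 FPKM in LSK, against 527.5, 446.2 and 444.9 FPKM in BMC, 3.36-fold lower (-1.75 ± 0.14, adjusted p = 2.3e-05). Rescaling to TPM moved the median of all genes by 1.32 in this comparison, and the 5 genes stayed lower under it, Mpo by the least (-0.63, adjusted p = 0.005). LSK and BMC were prepared with different kits, and the effects of kit and of cell population cannot be told apart.

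Lin- cells also had lower levels of all 5 than whole marrow (5 of 5 called, where 28.4% of 12428 genes were called lower). Elane had 15.9, 11.1 and 0.938 FPKM in Lin-, against the BMC values above (-5.75 ± 0.76, adjusted p = 0.00082), and Ms4a3 had 6.66, 2.56 and 2.34 FPKM in Lin- (-4.19 ± 0.32, adjusted p = 8.4e-05). Prtn3 had 27.7, 17.5 and 6.35 FPKM in Lin- (-3.2 ± 0.47, adjusted p = 0.0013). Mpo, with 194, 121.5 and 29.7 FPKM in Lin-, and Ctsg, with 75.3, 44.4 and 13.6, differed from BMC by -2.39 ± 0.63 (adjusted p = 0.016) and -2.35 ± 0.56 (adjusted p = 0.01). Lin- replicate 3, the library with the large erythroid share, was the lowest for each gene. The call of Mpo was lost without BMC replicate 1 (adjusted p = 0.057).

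Between LSK and Lin-, 1 of the 5 genes passed the test. Prtn3 was higher in LSK, where 33.4% of 13875 genes were called higher (1.25 ± 0.45, adjusted p = 0.045), and the call was lost with a pseudocount of 0.1, with no filter, with median-of-ratios scaling and without Lin- replicate 2 or any one LSK library. The differences were 0.26 ± 0.74 for Elane, 0.64 ± 0.62 for Mpo, -0.44 ± 0.54 for Ctsg and -0.73 ± 0.33 for Ms4a3 (adjusted p = 0.78, 0.4, 0.51 and 0.093), and that of Ctsg turned positive on TPM and on the recovered reads. Without Lin- replicate 3, 4 of the 5 genes were called: Prtn3 higher and Elane (-0.70), Ctsg (-1.11) and Ms4a3 (-0.94) lower in LSK, so that 1 library decided the pattern. These groups, too, differed in kit.

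Bone EC, the untreated endothelial sort, had more of the 5 transcripts than the stem cell fraction. As bone EC are the control of the irradiation contrast that chose the genes, high levels there were favoured by the choice, and the differences are given as a description with their standard errors. Adjusted p in limma were below 0.05 for 5 of 5 genes higher than in LSK (29.5% of 14321 genes), 4 higher than in Lin- (35.8% of 13255) and 4 lower than in BMC (34.6% of 13194), and nothing is read from these counts.

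The distance to LSK was widest for Elane and Ms4a3. Elane averaged 417 ± 62.4 FPKM in bone EC and 7.88 ± 1.64 in LSK, a 52.8-fold ratio (log2 difference 5.56 ± 0.18 SE), and Ms4a3 averaged 56 ± 6.84 FPKM in bone EC and 1.73 ± 0.304 in LSK, a 32.4-fold ratio (4.38 ± 0.15). The differences were 1.75 ± 0.17 for Ctsg, 1.24 ± 0.15 for Mpo and 1.19 ± 0.13 for Prtn3. Both groups were prepared with the same kit, but the differences depended on the processing. TPM moved the median of all genes by -0.86. Across the alternatives the lowest differences were 1.08 for Ctsg, 0.55 for Mpo and 0.51 for Prtn3. Of the 16 late granule and mature neutrophil genes 16 were higher in bone EC than in LSK as well, and their part in the 5 values was not tested.

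Relative to Lin-, bone EC differed by 5.82 ± 0.73 for Elane, 3.65 ± 0.32 for Ms4a3, 2.44 ± 0.45 for Prtn3, 1.89 ± 0.61 for Mpo and 1.32 ± 0.55 for Ctsg. The order of the genes was thus led by Elane and Ms4a3 again. Leaving out 1 library gave 0.65 to 1.84 for Ctsg and 1.11 to 2.44 for Mpo. The groups differed in kit, and the effects of kit and of cell population cannot be told apart.

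Relative to whole marrow, Elane averaged 417 ± 62.4 FPKM in bone EC and 397 ± 56.2 in BMC (0.07 ± 0.16), with overlapping ranges. The other genes had lower values in bone EC, with differences of -1.03 ± 0.16 for Ctsg, -0.76 ± 0.16 for Prtn3, -0.54 ± 0.13 for Ms4a3 and -0.50 ± 0.14 for Mpo. The differences depended on the scaling. On TPM, which moved the median of all genes by 0.39, they were 0.49 for Elane, -0.62 for Ctsg, -0.34 for Prtn3, -0.12 for Ms4a3 and -0.080 for Mpo. The groups differed in kit, and 15 of the 16 late granule and mature neutrophil genes were lower in bone EC too.

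**Figure D2:**
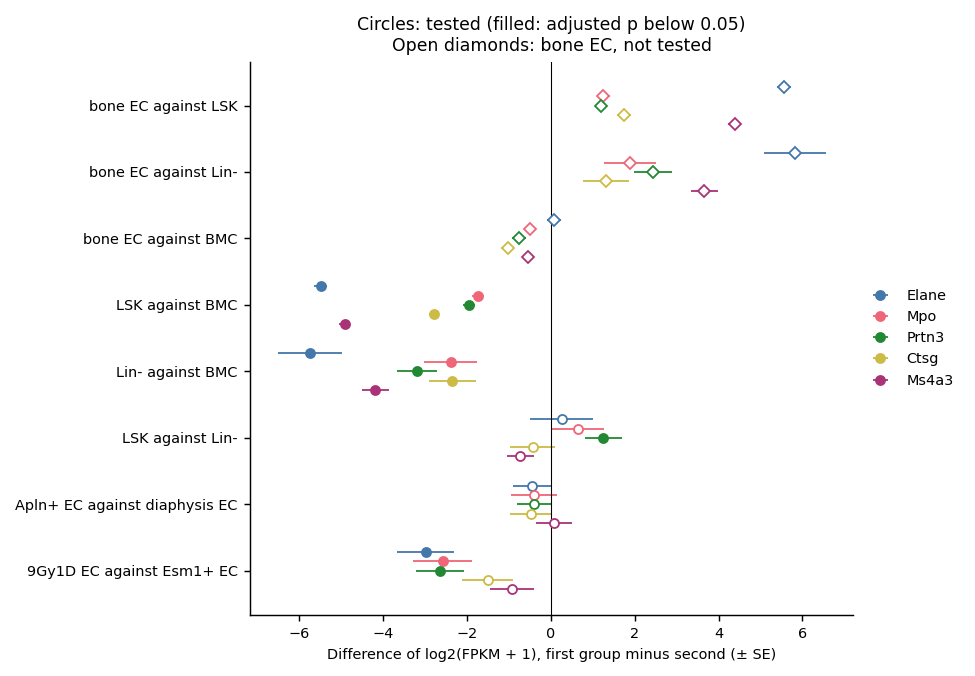
Differences of log2(FPKM + 1), first group minus second, with standard errors from limma (x axis), for the 5 genes in 8 comparisons (y axis, 3 libraries per group): circles are tested comparisons, filled where the adjusted p was below 0.05, and open diamonds the bone EC comparisons, which were not tested because bone EC entered the choice of the genes. Elane and Ms4a3 differ most wherever LSK or Lin- is compared with BMC or bone EC, and no gene passed in Apln+ EC against diaphysis EC.

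None of the 5 genes differed detectably between Apln+ EC and diaphysis EC: limma called 0 of 5, with 0 at an unadjusted p below 0.05, and voom on the recovered reads called 0, where 7.49% of 11889 genes were called in either direction. Elane had 1016, 631.6 and 295.5 FPKM in Apln+ EC, against 980.8, 630.9 and 788.9 FPKM in diaphysis EC (-0.45 ± 0.46, adjusted p = 0.66). Ms4a3 had 134.7, 75.4 and 42.1 FPKM in Apln+ EC, against 90.1, 54.6 and 73.8 FPKM in diaphysis EC (0.08 ± 0.43, adjusted p = 0.94, slightly negative on TPM and on the recovered reads). Mpo, Prtn3 and Ctsg differed by -0.41 ± 0.55, -0.41 ± 0.41 and -0.47 ± 0.5. The Apln+ libraries ranged over 2.82-fold for Prtn3 to 4.74-fold for Mpo, and in each gene replicate 1, the library with the least endothelial transcript and 24.4% of its FPKM in late granule genes, was the highest. With this spread, a modest difference between the groups could have been missed. These groups also differed in mouse line, in tamoxifen treatment and in the endothelial cells marked, and those effects cannot be told apart.

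The 9Gy1D EC libraries had less primary granule transcript than Esm1+ EC. Irradiation, the mouse line, tamoxifen and the endothelial cells marked changed together in this comparison, and their effects cannot be told apart. The genes were chosen as lower after irradiation in other libraries, so lower levels in 9Gy1D EC were favoured by the choice. The p-values here are therefore no independent evidence of a fall after irradiation. Elane had 539.4, 75.6 and 99.6 FPKM in 9Gy1D EC, against 1096, 1115 and 1699 FPKM in Esm1+ EC (-2.99 ± 0.68, adjusted p = 0.011). Mpo had 668.3, 84.8 and 134.1 FPKM in 9Gy1D EC, against 964.9, 974.4 and 1779 FPKM in Esm1+ EC (-2.59 ± 0.71, adjusted p = 0.023). Prtn3 had 69.8, 12.8 and 20.7 FPKM in 9Gy1D EC, against 137.8, 139.5 and 262.9 FPKM in Esm1+ EC (-2.64 ± 0.58, adjusted p = 0.0092). These 3 were called lower, where 23.1% of 11746 genes were.

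Ctsg and Ms4a3 did not pass. Ctsg had 103.7, 26.5 and 22 FPKM in 9Gy1D EC, against 82, 87.1 and 207.3 FPKM in Esm1+ EC (-1.51 ± 0.61, adjusted p = 0.083), and Ms4a3 had 96.1, 24.2 and 23.4 FPKM in 9Gy1D EC, against 60.9, 64.4 and 98.9 FPKM in Esm1+ EC (-0.92 ± 0.52, adjusted p = 0.19). 9Gy1D replicate 1 was the highest of its group in every gene, from 4.1 times the lowest library for Ms4a3 to 7.88 times for Mpo. Without it all 5 were called lower (Ctsg -2.19, adjusted p = 0.0074, and Ms4a3 -1.57, adjusted p = 0.0027), while the call of Mpo was lost without 9Gy1D replicate 2 or 3 or Esm1+ replicate 3 (adjusted p = 0.071 to 0.079). Of the late granule and mature neutrophil genes 10 of 16 were lower in 9Gy1D EC, 15 of 16 cell cycle genes were lower, and 10 of 12 pan-endothelial genes were higher (0.899% to 1.4% of FPKM in 9Gy1D EC, 0.218% to 0.41% in Esm1+ EC). Their part in the differences was not tested. Set beside the irradiated bone EC of another table, 9Gy1D EC had summed levels of 1477, 223.9 and 299.8 FPKM, far above the 1.86 to 18.5 FPKM there, at the same labelled dose of 9 Gy.

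The make-up of the 5-gene transcript pool, which no scaling of a library can change, separated the early marrow fractions from all other groups. Lin- shared its kit with BMC, and LSK with bone EC, while LSK and BMC differed in kit, as did Lin- and bone EC. The part of the kit in these shares was not tested. Mpo made up 65.8% ± 3.81 of the summed FPKM of the 5 genes in LSK and 59.5% ± 2.95 in Lin-, against 36.8% ± 0.81 in BMC. Elane made up 3.7% ± 0.67 in LSK and 4.12% ± 2.06 in Lin-, against 30.9% ± 0.65 in BMC and 42.2% ± 3.11 in bone EC. Mpo exceeded Elane 23.7, 16.6 and 14.9 times in LSK and 12.2, 11 and 31.6 times in Lin-, against 1.14, 1.24 and 1.2 times in BMC. In bone EC the ratio was 0.969, 0.668 and 0.806, in irradiated bone EC, with few reads, 0.179 to 2.49, and in the other endothelial groups 0.526 to 1.35. Lin- had in addition the largest share of Ctsg among the 11 groups, 23.9% ± 1.59, against 14.7% ± 0.32 in BMC.

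**Figure D3:**
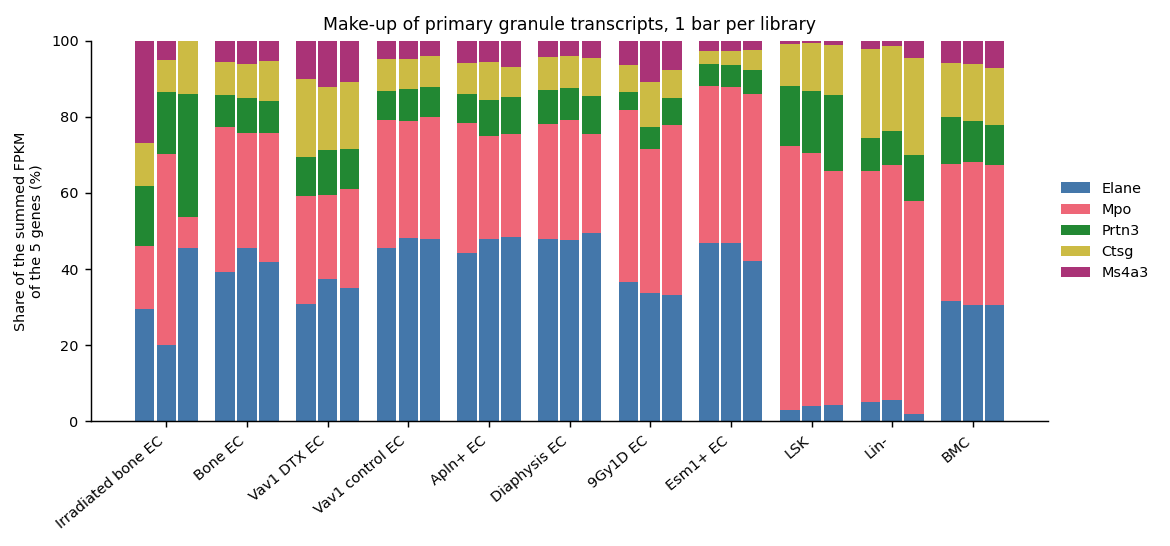
Share of each gene in the summed FPKM of the 5 genes (y axis, percent), 1 stacked bar per library, 3 libraries per group on the x axis. Mpo fills most of the bars of LSK and Lin-, Elane and Mpo together most of those of the other groups, and the shares of Ctsg and Ms4a3 are larger in Vav1 DTX EC than in Vav1 control EC; bars of irradiated bone EC rest on few reads.

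Vav1 DTX EC differed from its control in make-up. Ctsg made up 18.2% ± 1.99 in Vav1 DTX EC and 8.16% ± 0.26 in Vav1 control EC, Ms4a3 11% ± 1.03 in Vav1 DTX EC and 4.55% ± 0.38 in Vav1 control EC, and Elane 34.4% ± 3.2 in Vav1 DTX EC and 47.2% ± 1.45 in Vav1 control EC. The ratio of Ms4a3 to Elane was 0.326, 0.326 and 0.312 in Vav1 DTX EC, against 0.106, 0.0972 and 0.0861 in Vav1 control EC. That of Ctsg to Mpo was 0.723, 0.749 and 0.668 in Vav1 DTX EC, against 0.252, 0.263 and 0.248 in Vav1 control EC. Replicate 2, the lowest in every gene, thus lay close to the other two in both ratios. Esm1+ EC lay at the other end, with a Ms4a3 to Elane ratio of 0.0555 to 0.0582 and a Ctsg to Elane ratio of 0.0748 to 0.122. For 9Gy1D EC these ratios were 0.178 to 0.32 and 0.192 to 0.35, and the Elane share was 34.5% ± 1.77, so its values reached those of Vav1 DTX EC in the Elane share and, in replicate 2, in the Ms4a3 to Elane ratio. As these ratios follow from genes chosen on the Vav1 contrast, they are given with no test.

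The 5 genes were also set against the 16 late granule and mature neutrophil genes of the same library, which are made at later stages. The primary sum was 10.4%, 9.16% and 9.58% of the late sum in Vav1 DTX EC, against 2.81%, 2.62% and 2.73% in Vav1 control EC. In irradiated bone EC it was 0.238%, 1.43% and 0.171%, against 1.78%, 1.97% and 2.26% in bone EC. The choice of the genes on these contrasts favours such differences, and nothing is read from them. The share was 1.52%, 2.3% and 1.38% in Apln+ EC, against 4.06%, 3.38% and 3.22% in diaphysis EC, with no overlap. The primary sums did overlap, at 2296, 1320 and 612 FPKM in Apln+ EC, against 2053, 1324 and 1595 in diaphysis EC. The late sums were 151403, 57305 and 44478 FPKM in Apln+ EC, against 50620, 39100 and 49586 in diaphysis EC. How often other such shares lie apart was not counted, and nothing is read from the gap. For 9Gy1D EC the share was 2.74%, 0.673% and 0.955%, against 2.72%, 2.78% and 4.47% in Esm1+ EC. In LSK (80.9% to 147.5%) and Lin- (338.8% to 1077%) primary transcripts matched or exceeded the late ones, against 1.25% to 1.38% in BMC.

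**Figure D4:**
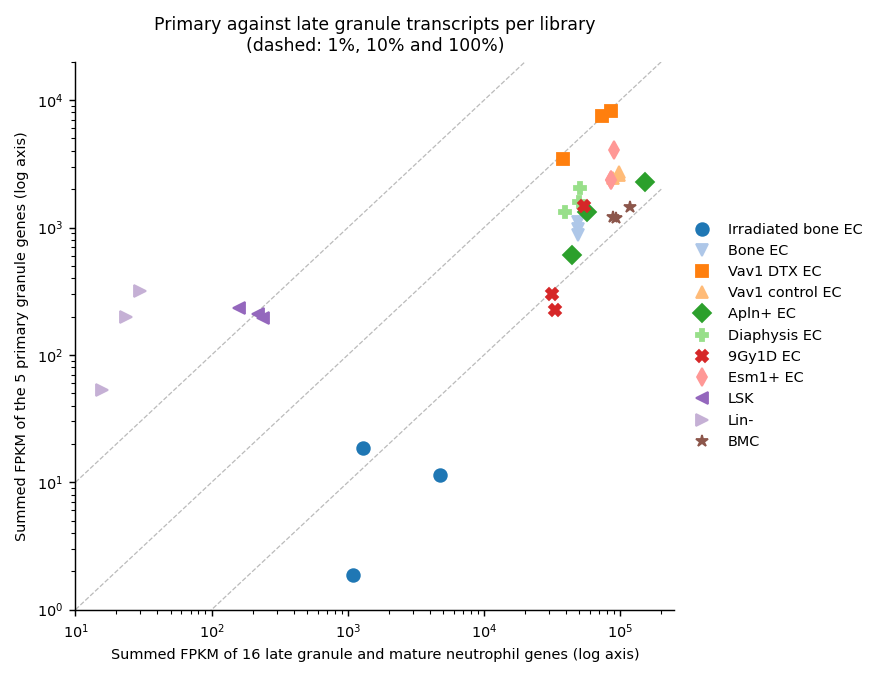
Summed FPKM of the 5 primary granule genes (y axis, log) against that of 16 late granule and mature neutrophil genes (x axis, log), 1 point per library; dashed lines mark a primary sum of 1%, 10% and 100% of the late sum. Vav1 DTX EC lies along the 10% line, most other endothelial libraries and BMC between 1% and 5%, and Lin- and LSK lie near or above 100%.

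Lists of 8 processing and storage partners, 8 protease inhibitors and 10 granulocyte transcription factors were also read. Whether each listed gene acts on the granule proteins was not tested. Prss57 and Serpinb1a were among the genes most like the mean of the 5 across the libraries (Pearson 0.87 and 0.86). The 2 contrasts below chose the 5, so the p-values of these genes there are no independent evidence. Prss57 is a further serine protease of primary granules. It averaged 31.6 ± 13.3 FPKM in Vav1 DTX EC and 12.5 ± 2.11 in Vav1 control EC (1.19, adjusted p = 0.03), and 0.725 ± 0.39 in irradiated bone EC and 7.31 ± 1.37 in bone EC (-2.28, adjusted p = 0.0004). Serpinb1a, a cytosolic inhibitor of elastase, proteinase 3 and cathepsin G, averaged 535 ± 251 FPKM in Vav1 DTX EC and 199 ± 22.6 in Vav1 control EC (1.3, adjusted p = 0.034), and 7.61 ± 4.38 in irradiated bone EC and 85.5 ± 9.02 in bone EC (-3.44, adjusted p = 0.00037). Cst7, which encodes cystatin F, an inhibitor of cathepsin C, rose in Vav1 DTX EC (1.35, adjusted p = 0.0028) and fell in irradiated bone EC (-1.88, adjusted p = 0.0017). Ctsc, the protease that activates the 3 granule proteases, did not pass (-0.079 in Vav1 DTX EC and -0.35 in irradiated bone EC).

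Of the 7 partners tested 3 rose (Prss57, Calr and Cd63) and 1 fell in Vav1 DTX EC, where 11.3% of all genes rose and 15% fell. In irradiated bone EC 3 partners rose and 3 fell, where 22.5% of all genes rose and 19.4% fell. Bpi was below the filter. Lyz2, lysozyme of granulocytes and macrophages, fell in Vav1 DTX EC (-1.94, adjusted p = 0.0014) and in irradiated bone EC (-3.74, adjusted p = 0.00095), whereas the proteoglycan gene Srgn, which holds proteases in the granule, fell after irradiation (-0.85, adjusted p = 0.012) and had 0.41 in Vav1 DTX EC (adjusted p = 0.058). Against the same shares of all genes, 4 of the 8 inhibitors rose and 2 fell in Vav1 DTX EC, and 2 rose and 3 fell in irradiated bone EC. The protease inhibitor gene Slpi fell in Vav1 DTX EC (-1.10, adjusted p = 0.00083) and in irradiated bone EC (-2.41, adjusted p = 0.00023). Stfa3 rose in Vav1 DTX EC (72.8 ± 37.6 against 8.45 ± 2.46 FPKM in Vav1 control EC, 2.82, adjusted p = 0.0046), but it has close paralogs whose reads cannot be assigned with certainty.

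Of the 10 granulocyte transcription factor genes 7 fell and 1 rose after irradiation (19.4% and 22.5% of all genes), with Myb (-3.64, adjusted p = 0.00025), Cebpe (-3.01, adjusted p = 0.00024) and Spi1, which encodes PU.1 (-2.4, adjusted p = 0.00054), the farthest down. In Vav1 DTX EC 0 rose, also at an unadjusted p below 0.05, and 2 fell (11.3% and 15% of all genes), Cebpb (-0.77, adjusted p = 0.039) and Irf8, a factor of the monocyte branch (-1.6, adjusted p = 0.003). Cebpe and Gfi1, which direct granulocyte maturation, had differences there of 0.32 (adjusted p = 0.61) and 0.77 (adjusted p = 0.34). In LSK 6 of the 10 factor genes were called lower than in BMC and 2 higher, where 33.8% and 39.3% of all genes were. Myb averaged 79.6 ± 4.01 FPKM in LSK and 76.7 ± 4.98 in BMC (0.05, adjusted p = 0.61), while Cebpe was listed at 0 in all 3 LSK libraries and at 79.7 ± 10.9 FPKM in BMC.

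Whether the irradiation and Vav1 DTX differences themselves differed was fitted on the 12 libraries of both contrasts, each difference being formed within its own table. The 2 differed for 15 of the 25 genes of the 3 lists, where they differed for 28.5% of 12339 genes. The lists were chosen with the values of the 5 genes known.

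**Figure D5:**
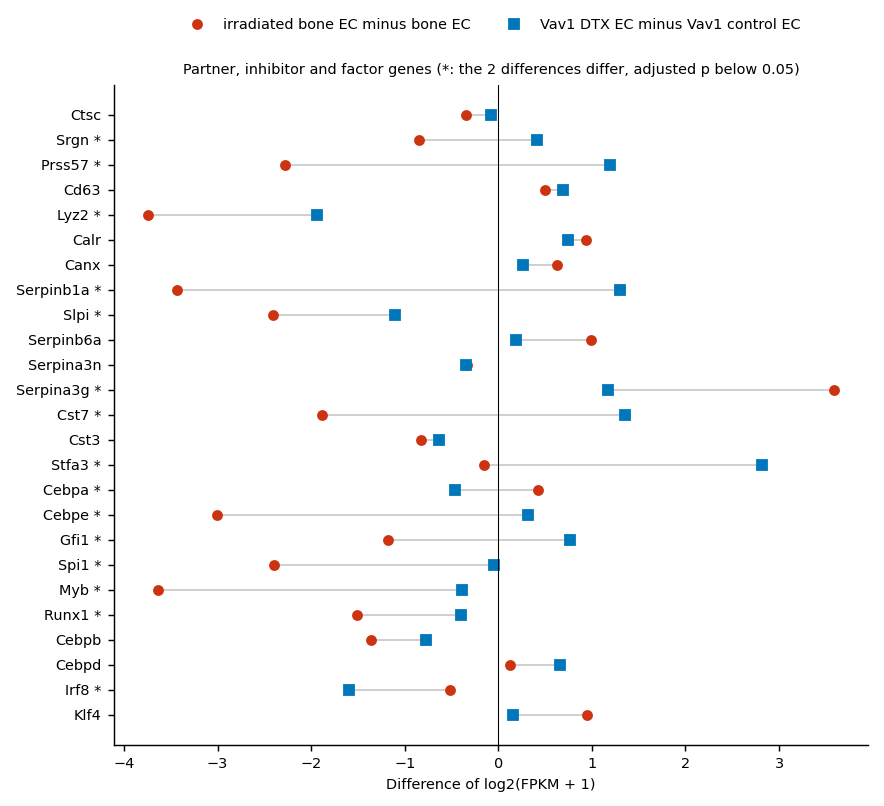
Difference of log2(FPKM + 1) (x axis) for the 25 tested genes of the 3 lists (y axis): red circles are irradiated bone EC minus bone EC, blue squares Vav1 DTX EC minus Vav1 control EC, 3 libraries per group; an asterisk marks genes for which the 2 differences differ. Prss57, Serpinb1a and Cst7 lie on opposite sides of 0, and Myb, Spi1 and Lyz2 are below 0 after irradiation and near or below 0 in Vav1 DTX EC.

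Among themselves the 5 genes followed each other across the 33 libraries. With values centred within each table, the Pearson correlation ran from 0.74 for Mpo with Ms4a3 to 0.96 for Mpo with Prtn3, and Elane, which lies beside Prtn3, was most like Ms4a3 (0.93). These are descriptions over libraries that share groups and cell content, and 12 of the 33 belong to the contrasts in which the genes were chosen for moving alike, which raises the values. By the same measure, over 10127 genes with a group mean of at least 5 FPKM, the genes most like the mean of the 5 were Ptgr1 (0.93), Alox5ap, Ptpn6, Hmgn2 and Mcpt8 (0.88 each), Prss57 and Stxbp2 (0.87 each), and Serpinb1a, Fam49b and Atp8b4 (0.86 each). Over the 15 libraries of the table with the marrow fractions only 2 of the 10 most like genes were the same, Ptgr1 and Ptpn6. Mcpt8, a protease gene known from basophils, is also the nearest coding neighbour of Ctsg on one side, 14607 bases away.

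The gene on the other side of Elane, Cfd, which encodes the complement protease factor D, lies 2637 bases away and did not follow it. Cfd averaged 78.8 ± 27.6 FPKM in irradiated bone EC and 29.9 ± 6.22 in bone EC (1.32, adjusted p = 0.011), and 6.52 ± 3.96 in Vav1 DTX EC and 24.3 ± 6.73 in Vav1 control EC (-1.88, adjusted p = 0.019). In LSK and in BMC it was listed at 0. Ptbp1, on the far side of Prtn3, had differences of -0.16 (adjusted p = 0.36) in irradiated bone EC and 0.31 (adjusted p = 0.19) in Vav1 DTX EC. Lpo, a related peroxidase gene beside Mpo, and Gzme, beside Ctsg, averaged below 2 FPKM in every group.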

How the data were processed

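The 4 deposited tables hold FPKM, computed by the authors and normalized separately, for 33 libraries in 11 groups. The submitters' processing notes name the build mm10 and, for demultiplexing, alignment, counting and analysis, bcl2fastq (2.19.1.403), TopHat2 (2.1.1), HTSeq (0.6.1) and DESeq2 (1.18.1). Per the labels' protocols, a TruSeq Stranded Total RNA kit served for BMC and Lin-, and SMART-Seq v4 with Nextera XT for all other libraries. Each table lists 38926 genes, of which 27, with names turned into dates, were left out.

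FPKM were whole multiples of a per-gene unit (tolerance 0.005) for 100% of 38899 genes, which gave reads (1.55 to 12.29 M per library) for intervals and for voom. Each pair of groups was fitted within its table by limma (3.58.1, R 4.3.3, data.table version 1.17.8), with a mean-variance trend, on log2(FPKM + 1), a scale that understates the change of low genes. The filter asked for 1 FPKM or more in 3 or more of 6 libraries. Calls were two-sided, with Benjamini-Hochberg adjusted p below 0.05 over every gene tested. A permutation test of 3 against 3 cannot go below an exact p of 0.1. The fit was tested on simulated data.

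The 5 genes, the other lists and the comparisons were chosen with earlier results of these data known. Also named were partner, inhibitor and factor genes, the 3 most abundant genes of other lists, the 10 most like the 5 and 2 most like each, nearest coding neighbours, and markers checking the labels. Alternatives changed the pseudocount (0.1, 5), the filter (none, or a mean of 5 FPKM), the scaling (median of ratios, or TPM), the trend, the samples fitted or the test (voom), added a replicate block or left out 1 library. In no comparison did every set of same-numbered replicates deviate together (correlation above 0.1), so numbers were not taken as pairs. Some did: the correlation was 0.33 and 0.30 for replicates 1 and 3 of Apln+ EC against diaphysis EC. It was 0.26 and 0.21 for replicates 2 and 3 of irradiated bone EC against bone EC. Positions come from GENCODE vM21, promoters of all 5 genes from RefSeq on GRCm38.p6.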

Additional observations from a re-analysis of the deposited data

Results flagged for a closer look

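For 15 of the 25 partner, inhibitor and transcription factor genes, the irradiation difference and the Vav1 DTX difference of log2(FPKM + 1) differed from each other in limma (adjusted p below 0.05). The irradiation difference minus the Vav1 DTX difference was -4.74 for Serpinb1a (adjusted p = 0.00021), -3.47 for Prss57, -3.23 for Cst7 and -2.97 for Stfa3. Among the factors it was -3.32 for Cebpe, -3.25 for Myb, -2.35 for Spi1, -1.94 for Gfi1, -1.10 for Runx1, 0.88 for Cebpa and 1.08 for Irf8. For the remaining genes it was -1.80 for Lyz2, -1.26 for Srgn, -1.30 for Slpi and 2.42 for Serpina3g. Serpinb1a, Prss57, Cst7 and the primary granule genes lay on opposite sides of 0 in the 2 contrasts, while Lyz2 and Slpi fell in both. For Myb the values were -3.64 after irradiation and -0.38 in Vav1 DTX EC, for Runx1 -1.51 and -0.40.

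For 4 of the 5 primary granule genes every irradiated library lay below all bone EC libraries and every Vav1 DTX library above all Vav1 control libraries. The irradiation difference minus the Vav1 DTX difference was -7.70 for Elane, -6.67 for Prtn3, -7.93 for Ctsg and -7.32 for Ms4a3. Of 11207 genes tested in both contrasts, 2.9% did the same (24.6% and 22.7% lay apart in each contrast alone). This opposition is what chose the genes, and the difference was not tested.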

How the results depend on the processing

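Of the values of single primary granule genes in the 8 comparisons other than irradiation and Vav1 DTX under the alternatives, 595 kept their direction and their side of the threshold, 26 lost the call, 9 gained one and 14 changed sign. The bone EC comparisons are part of this tally, and nothing is read from their calls. The cause of a change was not tested. None of the differences that changed sign was called in the fit reported. Leaving out 1 library gave -0.016 (without bone EC replicate 3) to 0.19 for Elane in bone EC against BMC. In LSK against Lin- it gave -0.70 to 0.86 for Elane, -0.13 to 1.20 for Mpo (both lowest without Lin- replicate 3) and -1.11 to 0.087 for Ctsg (highest without Lin- replicate 1), which was 0.44 on TPM and 0.13 with voom. In Apln+ EC against diaphysis EC it gave -0.86 to 0.025 for Elane, -0.97 to 0.15 for Mpo, -0.73 to 0.010 for Prtn3 and -0.88 to 0.097 for Ctsg (all highest without Apln+ replicate 3), and -0.33 (without Apln+ replicate 1) to 0.49 for Ms4a3, which was -0.11 without diaphysis replicate 2, -0.075 on TPM and -0.052 with voom.

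Counts of the 5 genes called fell to 0 with a pseudocount of 0.1, no filter or median-of-ratios scaling in LSK against Lin- (1 otherwise, with no library left out). Leaving out 1 library gave 0 to 4 in LSK against Lin- and 2 to 5 in 9Gy1D EC against Esm1+ EC. Genes called over the whole table at a mean of at least 5 FPKM were 5083 in bone EC against LSK, 5624 against Lin- and 6069 against BMC, 4675 in LSK against Lin-, 6190 in LSK against BMC and 445 in Apln+ EC against diaphysis EC, where fewer genes are tested. On TPM they were 13810 in bone EC against LSK, 13283 in LSK against Lin- and 15585 in LSK against BMC, where 17.6%, 89.6% and 86.9% of calls were higher, against 49%, 56.7% and 53.7% on the deposited values. TPM moved the median of all genes by -0.86, 1.10 and 1.32 in these. Elsewhere the share of calls that were higher was 69.3% on TPM and 50.8% on the deposited values in bone EC against BMC, 60.9% and 50.6% in Lin- against BMC, 27.2% and 38% in Apln+ EC against diaphysis EC, 64.7% and 47.2% in 9Gy1D EC against Esm1+ EC, 67.2% and 53.8% after irradiation and 67.3% and 43% in Vav1 DTX EC. Leaving out 1 library gave 4940 to 8253 genes in LSK against Lin-, 149 to 3835 in Apln+ EC against diaphysis EC, 3417 to 4794 in 9Gy1D EC against Esm1+ EC and 1124 to 4764 in Vav1 DTX EC against Vav1 control EC. In the irradiation contrast the difference of Ms4a3 was -6.35 with a pseudocount of 0.1 and -3.29 with 5.

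With the replicate number as a block, the counts of the 5 genes called were 5 in Lin- against BMC, 1 in LSK against Lin-, 5 in LSK against BMC, 0 in Apln+ EC against diaphysis EC and 3 in 9Gy1D EC against Esm1+ EC, the same counts as without it. Averaging Esm1+ replicates 1 and 2 left 3 called. Few reads stand behind the irradiated libraries (0 to 102 per gene, at 3.15 to 3.68 M reads a library, against 2.72 to 3.26 M in bone EC) and Ms4a3 in LSK.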
